A study of Homo sapiens with 6 samples.

Results

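The heat shock genes described here are 10 genes of the HSP70 and HSP90 chaperone systems, with the mitochondrial chaperonin, a small heat shock protein and the transcription factor HSF1. They were taken by gene symbol from a table of 50868 genes: HSPA1A, HSPA1B, HSPA8, HSPH1, DNAJB1, HSP90AA1, HSPB1, HSPD1, HSPE1 and HSF1. Each symbol had 1 row, and all 10 were among the 15953 genes that averaged 10 counts or more and entered the test. The libraries came from HEK-293T, a transformed line of human embryonic kidney cells, labelled wild type. One group of 3 libraries was from cells kept for 12 h with 10 µM nitidine chloride, a benzophenanthridine alkaloid, and the other group of 3 from cells kept in medium with DMSO, the solvent. The libraries were mRNA libraries and held 13273432 to 15620937 counts with nitidine chloride and 12688093 to 16357992 with DMSO. The labels do not say that the libraries of a group came from separate cultures, so p-values measure only the spread between these libraries, which may be technical.

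HSP70 proteins bind stretches of unfolded protein and release them in a cycle driven by ATP. J-domain proteins such as DNAJB1 bring clients and start ATP hydrolysis, and HSP110 proteins such as HSPH1 exchange the nucleotide, while HSP90 acts on clients at a later step of folding. HSF1 is the transcription factor of the cytosolic heat shock response: it is held inactive by chaperones, forms trimers under proteotoxic stress and binds heat shock elements, repeats of the unit nGAAn in alternating orientation. Textbook accounts treat some of these genes as strongly stress-inducible and others as mostly constitutive. By that division HSPA1A, HSPA1B, DNAJB1, HSPH1, HSP90AA1 and HSPB1 were put in an inducible class, and HSPA8, HSPD1, HSPE1 and HSF1 in a constitutive class, although several constitutive genes are known to respond to heat as well.

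With nitidine chloride, the counts of the near-identical inducible HSP70 genes HSPA1A and HSPA1B fell at log2 fold changes of -2.23 and -2.05. The genes share much of their sequence and HSPA1A had few reads, so these may not be separate falls. The RNA of the constitutive HSP70 gene HSPA8 fell less, and that of the small heat shock gene HSPB1 rose. At an adjusted p under 0.05 by edgeR's quasi-likelihood test, 1 of the 10 genes was higher, 3 were lower and 6 were not called. Of all tested genes, 51.7% were called in this comparison, 24.7% as higher and 27% as lower, so the share of the 10 genes that was called is no larger than that of the table. The 2 groups of libraries did not overlap for 6 of the 10 genes, against 60.7% of all tested genes. The median log2 fold change was -0.06 for the 10 genes and 0.01 for all tested genes. Within the inducible class 1 gene was higher, 2 were lower and 3 were not called, with a median of -0.06 and a range of -2.23 to 0.36. Within the constitutive class 0 were higher, 1 was lower and 3 were not called, with a median of -0.12 and a range of -0.82 to 0.36. The count of higher genes became 2 without the third DMSO library and without the second nitidine chloride library.

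**Figure D1:**
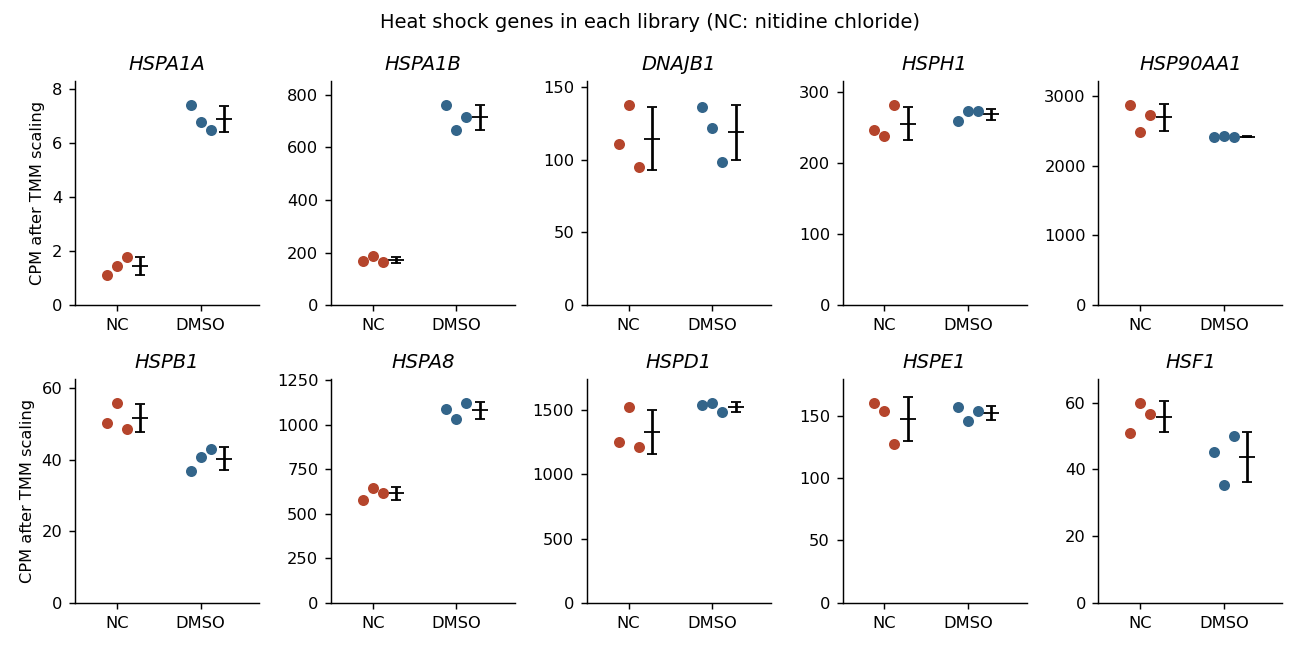
TMM-scaled CPM, the counts relative to each library's depth (linear axis from 0), of the 10 heat shock genes in each library, 1 panel per gene, with 3 nitidine chloride (NC) libraries on the left and 3 DMSO libraries on the right of each panel. Black marks give the mean and SD: HSPA1A, HSPA1B and HSPA8 lie lower in every NC library than in any DMSO library, and HSPB1, HSF1 and HSP90AA1 lie higher.

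HSPA1B (ENSG00000204388, chr6:31827735-31830255, plus strand, 1 exon) encodes the major stress-inducible cytosolic HSP70. It had 166, 187 and 163 CPM in the nitidine chloride libraries, against 761, 665 and 715 CPM in the DMSO libraries. The highest treated library lay far below the lowest DMSO library. HSPA1B averaged 172 ± 12.9 CPM with nitidine chloride and 714 ± 48.0 CPM with DMSO (SD, n = 3 each), a log2 fold change of -2.05 ± 0.08 (SE) with an edgeR adjusted p of 1.24e-06. The level fell by 75.9%. Only 3.69% of tested genes were called lower by at least 4-fold. Among the 560 tested genes with a mean FPKM of at least 50, HSPA1B had the rank 5 from the lowest fold change, and among the 2718 tested genes that span less than 5 kb it had the rank 18. In that group of short genes 12.3% were called lower and the median log2 fold change was 0.09. Such bulk libraries cannot tell fewer cells that express HSPA1B from less of its RNA in each cell. CPM is relative to library depth, so a change in the total RNA of a cell cannot be seen either.

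HSPA1A (ENSG00000204389, chr6:31815464-31817946, plus strand) encodes nearly the same HSP70 protein from a neighbouring gene. It had 16, 23 and 25 counts in the nitidine chloride libraries, against 90, 95 and 102 counts in the DMSO libraries, so its values rest on few reads. Its level was 1.46 ± 0.34 CPM with nitidine chloride and 6.88 ± 0.47 CPM with DMSO (SD, n = 3 each). The groups did not overlap, and the log2 fold change was -2.23 ± 0.19 (SE) with an edgeR adjusted p of 5.35e-05. Of the 2384 windows of 100 bases in the longest HSPA1A transcript of GENCODE release 29, 1666 (69.9%) occur letter for letter in HSPA1B. Reads from the shared stretches cannot be told apart, so the split between both rows depends on how the authors' counting placed them and is uncertain. Whether the HSPA1A row holds reads of its own was not tested, so its fall cannot be told from that of HSPA1B. HSPA1A made up 0.668%, 0.772% and 1.09% of the sum of both rows with nitidine chloride and 0.963%, 1.01% and 0.897% with DMSO. The 95% Wilson intervals of these shares, which cover counting error only, ran from 0.411% to 1.60% over the treated libraries and from 0.740% to 1.23% over the DMSO libraries and overlapped between the groups. With the rows of both genes summed before the fit, the log2 fold change was -2.05.

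HSPA8 (ENSG00000109971, chr11:123057489-123063230, minus strand) encodes HSC70, the constitutive cytosolic HSP70, which also serves in clathrin uncoating and chaperone-mediated autophagy. It had 577, 647 and 618 CPM with nitidine chloride, against 1090, 1030 and 1123 CPM with DMSO. All treated libraries lay below all DMSO libraries. The means were 614 ± 35.6 CPM with nitidine chloride and 1081 ± 47.0 CPM with DMSO (SD, n = 3 each), and the log2 fold change was -0.82 ± 0.07 (SE) with an edgeR adjusted p of 3.49e-05. Among the 1644 tested genes that span 5 to 10 kb, where 6.69% were called lower and 44.0% higher, HSPA8 had the rank 54 from the lowest. The calls and directions of HSPA1A, HSPA1B and HSPA8 were the same under all alternatives tried.

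The upstream sequences of genes with a heat shock motif are shown because the changed genes and some uncalled genes share that motif. RefSeq windows of 250 bases before an annotated start site (assembly GRCh38.p14) were found for 9 of the 10 genes, with 13 windows in all. HSF1 had none in the table. Printed 5′ to 3′ on the gene's strand, capitals mark matches to GAANNTTC or TTCNNGAA, each a pair of heat shock units, and overlapping matches run together. A further TTCNNGAA match of HSP90AA1, which begins 68 bases before its second start site, is not printed in full or in capitals. Where the window overlaps annotated exons, the printed run is the part outside them, or 30 bases around a motif that lies inside.
HSPA1A, chr6:31815293-31815463, plus strand: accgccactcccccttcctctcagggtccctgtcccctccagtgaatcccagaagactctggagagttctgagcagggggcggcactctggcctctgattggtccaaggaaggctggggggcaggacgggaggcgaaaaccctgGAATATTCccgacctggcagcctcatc
HSPA1B, chr6:31827488-31827734, plus strand: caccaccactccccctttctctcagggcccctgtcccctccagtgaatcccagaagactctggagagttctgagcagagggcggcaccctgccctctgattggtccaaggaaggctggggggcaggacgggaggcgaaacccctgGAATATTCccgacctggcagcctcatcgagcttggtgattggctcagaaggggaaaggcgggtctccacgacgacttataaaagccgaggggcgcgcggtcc
HSPA8, chr11:123062346-123062375, minus strand: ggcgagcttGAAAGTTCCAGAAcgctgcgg
HSPA8, chr11:123062171-123062200, minus strand: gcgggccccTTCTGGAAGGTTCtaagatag
HSPB1, chr7:76302423-76302543, plus strand: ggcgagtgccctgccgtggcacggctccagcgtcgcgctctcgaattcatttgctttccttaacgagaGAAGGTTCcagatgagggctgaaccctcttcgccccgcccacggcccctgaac
HSP90AA1, chr14:102087112-102087141, minus strand: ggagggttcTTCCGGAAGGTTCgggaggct
DNAJB1, chr19:14518421-14518647, minus strand: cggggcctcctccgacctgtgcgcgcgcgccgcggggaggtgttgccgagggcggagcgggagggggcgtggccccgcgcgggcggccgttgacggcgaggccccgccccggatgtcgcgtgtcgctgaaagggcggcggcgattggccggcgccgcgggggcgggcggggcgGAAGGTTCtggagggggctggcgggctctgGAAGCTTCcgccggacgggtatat
HSPD1, chr2:197500061-197500090, minus strand: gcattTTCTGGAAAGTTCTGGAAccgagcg

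The whole windows of HSPA1A and HSPA1B were identical at 93.6% of aligned positions. Each holds 1 match to GAANNTTC, which begins 106 bases before the start site in HSPA1A and 105 bases before it in HSPA1B. Each also holds the TATA-box word TATAAA, found in 10.8% of all 34943 RefSeq windows searched on both strands, and matches to the CCAAT box. A run of 3 units, GAANNTTCNNGAA on either strand, was found in 1 window each of HSPA8, HSP90AA1 and HSPD1. These lie among the 13 windows of the 9 genes, and 0.441% of all windows held such a run. Its matches contain both 2-unit motifs, which overlap within it. HSPA8 has 2 such runs, which begin 230 and 55 bases before the start site. The second start site of HSP90AA1 has 1 run that begins 88 bases before it, and the second start site of HSPD1 has 2 overlapping runs that begin 245 and 240 bases before it. Either 2-unit motif was found in 11.6% of all windows, and also in HSPB1 and in the second start site of DNAJB1, but no match lay in the windows of HSPH1 and HSPE1. Genes with a 3-unit run were thus found among those that fell (HSPA8) and those not called (HSP90AA1 and HSPD1). A match is a description of the letters, and binding was not measured.

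**Figure D2:**
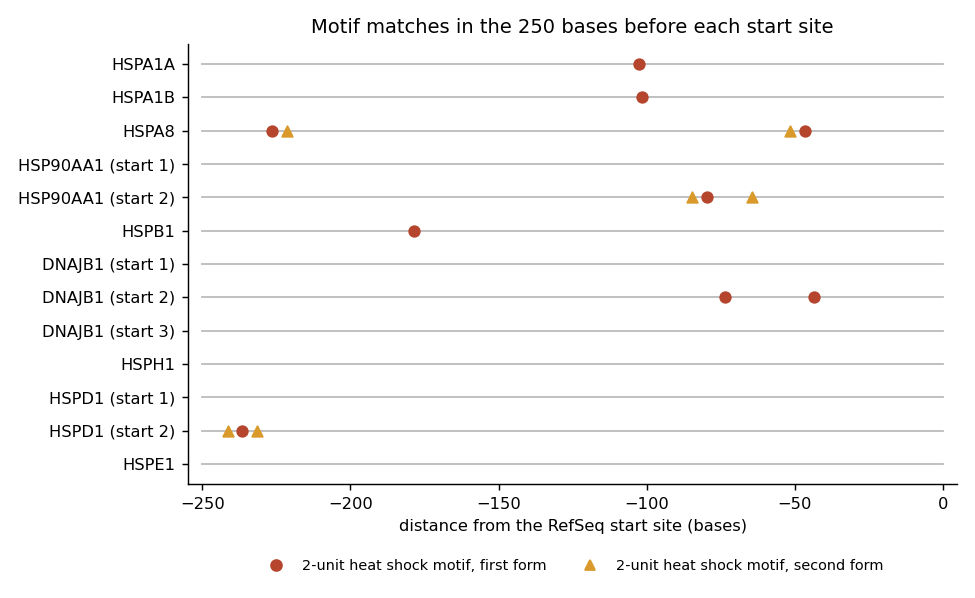
Positions of the 2-unit motifs GAANNTTC (circles, first form) and TTCNNGAA (triangles, second form) in the 250 bases before each RefSeq start site (x axis, distance in bases; 1 line per window). HSPA1A and HSPA1B carry 1 match at nearly the same place, while HSPA8 carries overlapping matches near both ends of its window.

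HSP90AA1 (ENSG00000080824, chr14:102080738-102139699, minus strand) encodes the stress-inducible cytosolic HSP90 alpha. It had 2869, 2488 and 2720 CPM with nitidine chloride, against 2412, 2426 and 2417 CPM with DMSO. The treated libraries all lay above the DMSO libraries, but the second of them only narrowly. The log2 fold change was 0.15 ± 0.06 (SE), which was not called at an edgeR adjusted p of 0.0721. It was called without the second nitidine chloride library, at 0.21 with an edgeR adjusted p of 0.00618, and with scaling by library size alone, at 0.26 with an edgeR adjusted p of 0.0126. The ratio of HSP90AA1 to HSP90AB1, the constitutive HSP90 gene, within a library was 0.488 ± 0.060 with nitidine chloride and 0.445 ± 0.011 with DMSO (SD, n = 3 each; per length), and the groups overlapped.

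HSPB1 (ENSG00000106211, chr7:76302544-76304295, plus strand) encodes HSP27, an ATP-independent small heat shock protein that holds unfolded proteins and acts on the actin cytoskeleton. It had 50.4, 56.0 and 48.5 CPM with nitidine chloride, against 36.9, 40.9 and 43.2 CPM with DMSO. Every treated library was above every DMSO library. HSPB1 rose to a mean of 51.6 ± 3.87 CPM with nitidine chloride, against 40.3 ± 3.17 CPM with DMSO (SD, n = 3 each), a log2 fold change of 0.36 ± 0.09 (SE) with an edgeR adjusted p of 0.0131. This call does not pass a threshold of 0.01. Of all tested genes, 73.9% had a lower log2 fold change than HSPB1. Among the 2718 tested genes that span less than 5 kb, 71.3% did, and 23.4% were called higher.

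HSPH1 (ENSG00000120694, chr13:31134974-31162388, minus strand) encodes HSP105, an HSP110 protein that exchanges the nucleotide of HSP70. It had 247, 239 and 282 CPM with nitidine chloride, against 260, 274 and 274 CPM with DMSO. The groups overlapped, and the log2 fold change of -0.07 ± 0.08 (SE) was not called (edgeR adjusted p = 0.460). DNAJB1 (ENSG00000132002, chr19:14514770-14529770, minus strand) encodes HSP40, the J-domain partner of HSP70. It had 110, 137 and 95 CPM with nitidine chloride, against 136, 121 and 98.6 CPM with DMSO. Both groups spread widely and overlapped, and the log2 fold change was -0.05 ± 0.16 (SE; edgeR adjusted p = 0.801). With that SE, a change of modest size was not detectable for DNAJB1. DNAJB1 overlaps TECR on the opposite strand over 12686 bases. Whether the counting used strand is not given in the sources used here, so its counts are uncertain. The signs of both genes turned positive with scaling by library size alone, and that of DNAJB1 also without the first DMSO library or the third nitidine chloride library, all without a call.

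HSPD1 and HSPE1 encode HSP60 and HSP10, the chamber and the lid of the mitochondrial chaperonin, from neighbouring genes on opposite strands. HSPD1 (ENSG00000144381, chr2:197486581-197516737, minus strand) had 1252, 1521 and 1212 CPM with nitidine chloride, against 1536, 1557 and 1484 CPM with DMSO. The second treated library lay inside the range of the DMSO libraries and the other two below it. The log2 fold change was -0.20 ± 0.09 (SE), not called at an edgeR adjusted p of 0.0982, and -0.31 with an edgeR adjusted p of 0.00192 without that second treated library. HSPE1 (ENSG00000115541, chr2:197499994-197503457, plus strand) had 160, 154 and 127 CPM with nitidine chloride, against 157, 146 and 154 CPM with DMSO. The groups overlapped, and its log2 fold change was -0.05 ± 0.09 (SE; edgeR adjusted p = 0.689), with a positive sign without the third nitidine chloride library or with scaling by library size alone. The whole span of HSPE1, 3464 bases, lies within that of HSPD1, so without a known strand setting the counts of HSPE1, and the ratio of both genes, are uncertain. Rows of pseudogenes and readthrough transcripts named after a gene amounted to 6.79% of the counts of HSPE1 and 3.81% of those of HSPD1. The ratio of HSPD1 to HSPE1 within a library, per length, was 4.23 ± 0.52 with nitidine chloride and 4.68 ± 0.26 with DMSO (SD, n = 3 each), and the groups overlapped.

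HSF1 (ENSG00000185122, chr8:144291591-144314722, plus strand) had 51.0, 59.9 and 56.5 CPM with nitidine chloride, against 45.1, 35.4 and 50.1 CPM with DMSO. The treated libraries lay above the DMSO libraries, the lowest of them only just above the third DMSO library. The log2 fold change was 0.36 ± 0.13 (SE) and missed the threshold at an edgeR adjusted p of 0.0548. It passed without the third DMSO library, at 0.47 with an edgeR adjusted p of 0.0275, but it stayed uncalled in 11 of 18 alternatives. One that called it used library totals over all genes of the table in place of totals over the tested genes, which gave an edgeR adjusted p of 0.0432. Its call thus depends on the processing. HSF1 overlaps DGAT1 on the opposite strand by 139 bases.

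**Figure D3:**
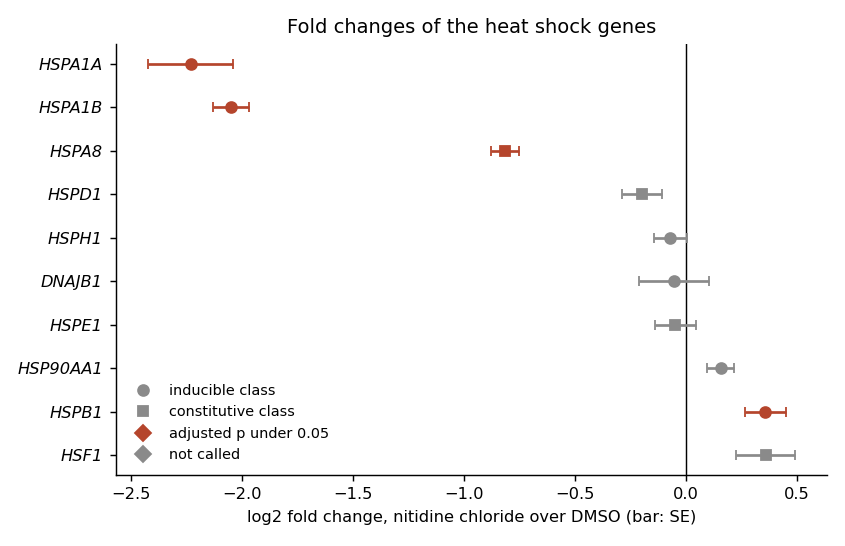
Log2 fold change of each of the 10 genes, nitidine chloride over DMSO (x axis, bars are the SE from edgeR's fit), ordered from the lowest, with circles for the inducible class and squares for the constitutive class. Genes of both classes stand at both ends: HSPA1A and HSPA1B at -2.23 and -2.05 and HSPA8 at -0.82 are called lower, HSPB1 at 0.36 is called higher, and HSF1 at 0.36 is not called.

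The order of the levels differed between the groups. Levels between genes are given as CPM (from library totals, without TMM) per kilobase of merged exons, since the length behind the deposited FPKM exceeds the merged exons for 9 of the 10 genes (14123 against 4849 bases for HSPA8) and equals them for HSPA1B, at 2521 bases. With nitidine chloride the order was HSP90AA1 at 532 ± 46.7, HSPD1 at 324 ± 34.6, HSPA8 at 131 ± 5.90, HSPE1 at 76.9 ± 8.87 and HSPA1B at 70.6 ± 3.93 CPM per kilobase (SD, n = 3). HSPE1 and HSPA1B did not differ beyond their spread there. HSPB1, DNAJB1 and HSPH1 followed at 32.7, 32.2 and 31.6, with overlapping ranges, then HSF1 at 10.9 and HSPA1A at 0.607. With DMSO the order was HSP90AA1 at 444 ± 2.81, HSPD1 at 346 ± 8.71, HSPA1B at 272 ± 17.4, HSPA8 at 215 ± 9.0 and HSPE1 at 74.0 ± 2.56. DNAJB1 and HSPH1, at 31.1 and 30.9, overlapped, and HSPB1 at 23.8, HSF1 at 7.90 and HSPA1A at 2.67 followed. In both groups the level of HSPA1A depends on the uncertain split of reads with HSPA1B. By this length HSPA1B stood above HSPA8 in every DMSO library and below it in every treated library. The order of these genes rests on the length used: by the deposited FPKM HSPA1B, at 67.8 to 75.1, was above HSPA8, at 42.7 to 46.5, in the treated libraries too, and by CPM with no length it was below HSPA8 in every library of both groups. The change of their ratio between the groups does not depend on a length.

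**Figure D4:**
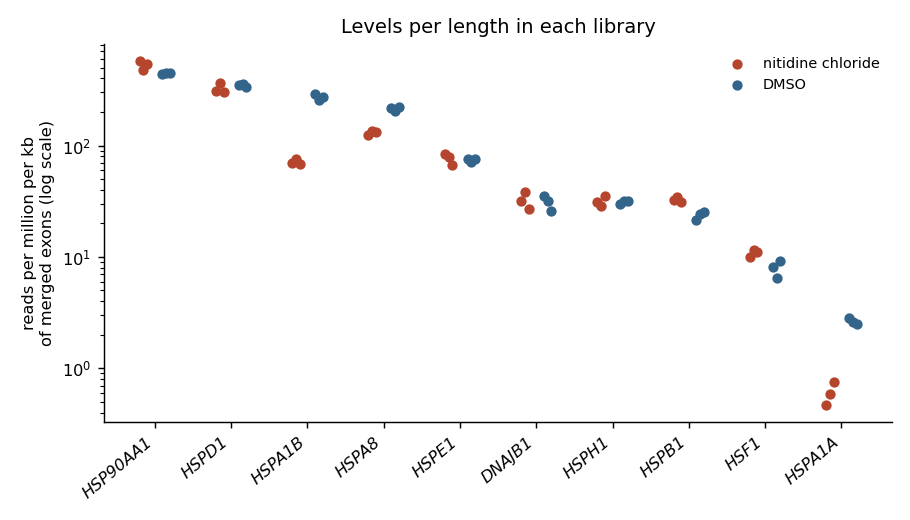
Level of each gene per library in CPM per kilobase of merged exons (log axis), ordered by the DMSO mean, with nitidine chloride left of DMSO for each gene. HSPA1B stands at 67.8 to 75.1 with nitidine chloride, near HSPE1, and at 255 to 289 with DMSO, above HSPA8.

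Within a library, the ratio of HSPA1B to HSPA8 per length was 0.539 ± 0.027 with nitidine chloride and 1.27 ± 0.064 with DMSO (SD, n = 3 each), without overlap. The ratio of HSPA1B to HSP90AA1 was 0.134 ± 0.020 with nitidine chloride and 0.614 ± 0.043 with DMSO, and that of HSPA1B to DNAJB1 was 2.22 ± 0.26 with nitidine chloride and 8.89 ± 1.45 with DMSO. These ratios need no scaling between libraries. The ratio of HSPH1 to HSPA8 was higher with nitidine chloride, at 0.242 ± 0.026, against 0.144 ± 0.008 with DMSO, also without overlap. The 10 genes together took 0.556% to 0.573% of the counts of a treated library and 0.608% to 0.618% of those of a DMSO library. HSPA1A and HSPA1B made up 3.05% to 3.43% of that sum with nitidine chloride and 10.7% to 11.9% with DMSO, while HSP90AA1 made up 45.3% to 52.3% with nitidine chloride and 37.4% to 38.5% with DMSO. In such a sum the share of a gene rises where other genes fall. The level of HSP90AA1 itself was not called, at a log2 fold change of 0.15 (edgeR adjusted p = 0.0721).

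Around these genes, 10 lists of chaperones, partners and regulators held 111 further genes, of which 101 were tested. Of these 27 were higher, 25 lower and 49 not called, a called share of 51.5%, with a median log2 fold change of 0.04. Neither this share nor this median stands far from that of all tested genes. Scaling by library size alone gave 37 higher and 21 lower genes. The lists overlap, and HSPA6, a strictly stress-inducible HSP70 gene, and CRYAB, a small heat shock protein gene, were below the count filter.

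Of 11 other HSP70 and HSP110 genes, 3 were higher and 4 lower, with 2 lower without any 1 of the DMSO libraries or with scaling by library size alone. HSPA1L, a testis-rich HSP70 gene beside HSPA1A, had 1.80 ± 0.30 CPM with nitidine chloride and 6.88 ± 0.86 CPM with DMSO (SD, n = 3 each), a log2 fold change of -1.92 ± 0.18 (SE). Of its 2495 windows of 50 bases, 61 occur in HSPA1B. HSPA4, an HSP110 protein that exchanges nucleotide on HSP70, was lower at -0.58 ± 0.05, with 378 ± 9.89 CPM with nitidine chloride and 564 ± 3.02 CPM with DMSO. HSPA13, a microsomal HSP70, was higher at 0.58 ± 0.09 and HSPA14, an HSP70 of the ribosome-associated complex, at 0.26 ± 0.05. Of 3 other HSP90 genes, HSP90B1 of the endoplasmic reticulum was lower at -0.53 ± 0.07 and TRAP1 of the mitochondria at -0.38 ± 0.07. HSP90AB1 was not called, at 0.03 ± 0.06, but was called higher, at 0.13, with scaling by library size alone.

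Of 18 HSP90 co-chaperones, 5 were higher and 4 lower, with 3 higher without the first or the second DMSO library and 8 higher with scaling by library size alone. CHORDC1, a co-chaperone known as morgana, had 35.8 ± 6.52 CPM with nitidine chloride and 121 ± 0.977 CPM with DMSO, a log2 fold change of -1.76 ± 0.13 (SE; edgeR adjusted p = 2.19e-05). FKBP5, a steroid receptor immunophilin, was lower at -0.82 ± 0.06 and TTC4 higher at 0.36 ± 0.07. Of 13 nucleotide exchange factors and adaptors of HSP70, 4 were higher and 3 lower, with 5 lower without the second treated library. SIL1, the exchange factor of the HSP70 in the endoplasmic reticulum, had 5.63 ± 1.34 CPM with nitidine chloride and 32.0 ± 1.73 CPM with DMSO, a log2 fold change of -2.50 ± 0.17. GRPEL2, a mitochondrial exchange factor, was higher at 1.0 ± 0.08, and BAG2, an inhibitor of the CHIP ubiquitin ligase, at 0.59 ± 0.08. Of 7 J-domain partners, DNAJB2 was higher at 0.76 ± 0.11 and DNAJA1 lower at -0.20 ± 0.06. The count of lower J-domain genes was 0 without the first DMSO library and 2 without the third DMSO or the third treated library. The call for DNAJA1 was lost without the first DMSO library, at -0.17, and with scaling by library size alone, at -0.10. Of 2 other small heat shock protein genes tested, HSPB8, the partner of BAG3 in selective autophagy, was higher at 0.53 ± 0.12.

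The list of heat shock factors and regulators of HSF1 held 14 tested genes, of which 2 were higher and 8 lower, with a median log2 fold change of -0.52, against 24.7% higher and 27% lower over all tested genes. Of the 8 lower genes, 7 span 50 kb or more, and the 2 higher genes span 11.9 and 33.7 kb. Over all tested genes, 39.8% of those of 50 to 100 kb and 80.4% of those of 100 kb or more were called lower, with medians of -0.21 and -1.10, and the part of span in the list's count was not tested. The lower genes of other lists were both long and short. SIL1, FKBP5 and CLPB span 347, 155 and 142 kb, while CHORDC1, PFDN6 and HSPA1L span 22.2, 9.1 and 5.45 kb. The count of higher genes was 4 without the first treated library and with scaling by library size alone. The genes named by the rule are kinases and other proteins with many roles besides HSF1. GSK3B, a kinase that phosphorylates HSF1 among many substrates, spans 273 kb and had 20.3 ± 1.61 CPM with nitidine chloride and 98.1 ± 5.20 CPM with DMSO (SD, n = 3 each), a log2 fold change of -2.27 ± 0.09 (SE; edgeR adjusted p = 1.12e-06). MAPK8, the stress kinase JNK1, spans 133 kb and was lower at -1.37 ± 0.09. SIRT1, a deacetylase that acts on HSF1, was higher at 0.53 ± 0.07, and HSBP1, which binds HSF1 trimers, at 0.33 ± 0.07. Of 28 tested genes listed as induced by heat shock through HSF1, 9 were higher, 8 lower and 11 not called, with a median of 0.07. In that list RGS2, a regulator of G-protein signalling, was higher at 1.13 ± 0.09 and HSPB8 at 0.53, while HSPA1L and CHORDC1 were the lowest. The place of the testis-rich HSPA1L in this list is doubtful. With HSPA1L summed into HSPA1A and HSPA1B, the list held 27 tested genes, 9 higher and 7 lower. The count of higher genes in this list was 5 without the first DMSO library and 6 without the second or the third, and scaling by library size alone gave 13 higher and 6 lower genes.

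Of 14 subunits of the cytosolic chaperonin TRiC and of prefoldin, 1 was higher and 1 lower, and 5 were higher with scaling by library size alone. PFDN6 was lower at -0.64 ± 0.10, and PFDN5 was higher at 0.20 ± 0.07, with an edgeR adjusted p of 0.0473. It kept that call in 8 of 18 alternatives: the call was lost without the second or the third DMSO library and without any 1 of the treated libraries, at 0.15 to 0.23, and also with no filter on low counts and in DESeq2. Of 14 genes of mitochondrial protein folding and quality control, 6 were higher and 3 lower, a called share of 64.3%, against 51.7% of all tested genes. The count of higher genes in this list was 4 without any 1 of the DMSO libraries or without the first treated library. It was 3 at a threshold of 0.01. CLPP, a matrix protease, was higher at 0.39 ± 0.06, and CLPB, a mitochondrial disaggregase, was lower at -0.91 ± 0.09.

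**Figure D5:**
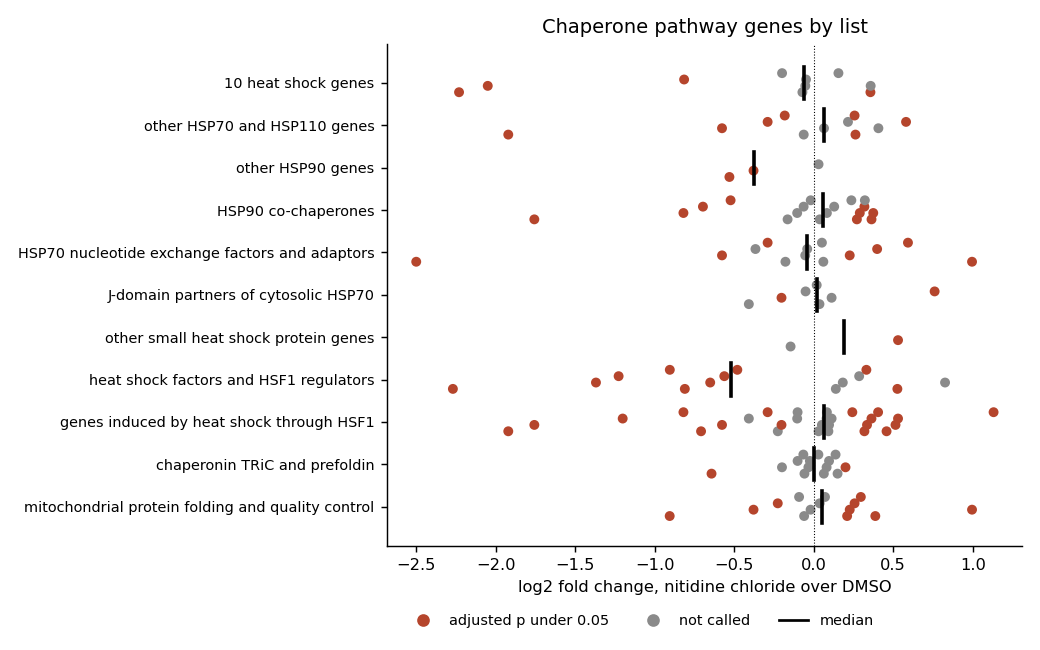
Log2 fold change, nitidine chloride over DMSO (x axis), of the 10 heat shock genes and of the tested genes of each chaperone list (1 row per list, 1 point per gene), with genes at an edgeR adjusted p under 0.05 in red and the list's median as a black bar. Most lists have called genes on both sides of 0 and a median near 0, and the list of heat shock factors and regulators has its median at -0.52.

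Among the genes whose profile over the 6 libraries was closest to that of HSPA1B, by the root mean square difference of centred log2 CPM, were DIP2B (0.049) and CA2 (0.0679). DIP2B had 33.0 ± 2.81 CPM with nitidine chloride and 131 ± 6.05 CPM with DMSO (SD, n = 3 each). CA2 had 85.5 ± 9.78 CPM with nitidine chloride and 364 ± 27.2 CPM with DMSO. DIP2B spans 244 kb and CA2 17.6 kb, against 2.52 kb for HSPA1B.

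All 7 markers of HEK-293T cells looked at had counts, with a summed FPKM of 102 to 134 with nitidine chloride and 90.9 to 118 with DMSO. Most of that sum was the filament gene VIM, at 78.1 to 111 FPKM with nitidine chloride and 62.1 to 88.9 FPKM with DMSO. The cadherin gene CDH2 was lower, at 2.00 to 2.10 FPKM with nitidine chloride and 7.62 to 8.31 FPKM with DMSO, as were EYA1, at 0.320 to 0.337 FPKM with nitidine chloride and 0.785 to 0.875 FPKM with DMSO, and NEFM, at 9.19 to 9.63 FPKM with nitidine chloride and 12.0 to 13.4 FPKM with DMSO. LHX1 went the other way, at 2.21 to 2.51 FPKM with nitidine chloride and 1.28 to 1.34 FPKM with DMSO. SALL1 and PAX2 were also higher in every nitidine chloride library than in any DMSO library. The 10 markers of other cell types summed to 4.36 to 4.88 FPKM with nitidine chloride and 2.51 to 3.07 FPKM with DMSO. Nearly all of that was the collagen gene COL1A1, at 4.05 to 4.45 FPKM with nitidine chloride and 2.22 to 2.54 FPKM with DMSO. The leukocyte marker CD3E was listed at 0 in every library, and the part of these markers in the results was not tested.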

How the data were processed

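RNA of HEK-293T cells was measured by mRNA sequencing in 3 libraries per group, with groups and replicate numbers from the labels. Per the file headers, the deposited columns are raw counts and FPKM, the second scaled by the authors to length and depth. The submitters' processing notes list HISAT2 2.0.4 and StringTie 1.3.0 without saying what each did. Which counter, strand setting and build were used is not given in the sources used here. The positions of all 10 genes equal those of GENCODE release 29 (GRCh38), whose merged exons gave the lengths for levels. The deposited FPKM was to serve for these levels, but its lengths exceed the merged exons for 9 of the 10 genes, which was found after the data were seen.

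Genes that averaged 10 counts or more in the 6 libraries entered the test with edgeR 4.0.16 (R 4.3.3), by the quasi-likelihood test of nitidine chloride against DMSO with TMM scaling, no covariate and Benjamini-Hochberg adjustment over all tested genes at 0.05. The script was checked on simulated data. Library totals over the tested genes were chosen over totals of all genes after both results were seen, and that choice decides the call of HSF1. CPM was computed here from the deposited counts, and the SE is the log2 fold change divided by the square root of the F statistic. The members and lists were chosen with earlier results of these data known. Named genes were the 10 members, for each list the 2 most changed genes at most in each direction that were called and had separated groups, and the 3 genes of at least 50 mean counts closest to HSPA1B. Some genes that this rule names are left out of the text. HSP90AB1, HSPA5, HSPA9 and BAG3 were chosen after their values were seen. Alternatives used DESeq2 1.42.0 and limma 3.58.1, among others. Promoters were aligned with Biopython 1.88 and plots drawn with matplotlib 3.10.9.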

Additional observations from a re-analysis of the deposited data

How the results depend on the processing

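Of 18 alternatives, HSPA1A (-2.40 to -2.05), HSPA1B (-2.11 to -1.95) and HSPA8 (-0.85 to -0.71) kept direction and call in 18. HSPB1 lost its call at a threshold of 0.01 and in the test against a 1.5-fold change (0.36 in both). HSF1 passed with no filter (0.36), a mean count of at least 50 (0.37), DESeq2 (0.36), limma-voom (0.37), library totals over all genes (0.38, chosen after seeing the data), scaling by library size alone (0.46) and without the third DMSO library. HSP90AA1 passed with scaling by library size alone (0.26), where DNAJB1 (0.049), HSPH1 (0.035) and HSPE1 (0.056) turned positive without a call. The count of higher members was 2 with no filter, a mean count of at least 50, DESeq2, limma-voom and totals over all genes, 3 with library-size scaling, and 0 at 0.01 and in the 1.5-fold test. At 0.01, 2616 genes and 16 listed genes were higher. The 1.5-fold test left 2833 genes (750 higher, 2083 lower) and 2 higher and 10 lower listed genes.

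Leaving out 1 library at a time gave 7057 to 7828 called genes (3229 to 3673 higher, 3828 to 4188 lower), 1 to 2 higher and 3 to 4 lower members, and 19 to 25 higher and 22 to 26 lower listed genes. The log2 fold changes were -2.40 to -2.08 for HSPA1A, -2.11 to -2.01 for HSPA1B, -0.85 to -0.77 for HSPA8, -0.31 to -0.14 for HSPD1, -0.21 to 0.066 for DNAJB1, -0.14 to -0.02 for HSPH1, -0.11 to 0.048 for HSPE1, 0.11 to 0.21 for HSP90AA1, 0.30 to 0.41 for HSPB1 and 0.23 to 0.47 for HSF1. Reversals without a call were DNAJB1 without the first DMSO library (0.054) and without the third treated library (0.066), HSPE1 without the third treated library (0.048), BAG3 without the second DMSO library (-0.0017, in a range up to 0.086) and HSP90AB1 without the second treated library (-0.015, in a range up to 0.059).

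Library-size scaling moved the median of all genes to 0.12, against 0.01, and the higher share of calls to 57.9%, against 47.7%. The median of the HSP70 exchange factor list changed sign with it, at 0.07 against -0.04. The deviations of same-numbered libraries had correlations of -0.0077, -0.075 and 0.040. Differently numbered libraries gave values of similar size, such as -0.092. These correlations therefore cannot tell whether the numbers pair the libraries, and the labels do not say. With the replicate number as a block HSPA1B was at -2.05 and HSPA8 at -0.82, with no member's call changed. DNAJA1 (-0.20) and PFDN5 (0.20) of the lists and HSPA5 (-0.18) lost their calls there, at edgeR adjusted p of 0.0620, 0.0688 and 0.0769. Of 575 values for the 32 other genes chosen by the rule or after their values were seen, 529 kept direction and call, 43 lost the call, 2 reversed and 1 gained it. The causes were not tested. Few counts limit HSPA1A.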

Other observations

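HSP70 genes of other compartments and a classic HSF1 target were also looked at, chosen after their values were seen. HSPA9, the mitochondrial HSP70, had 948 ± 12.9 CPM with nitidine chloride and 793 ± 20.8 CPM with DMSO (SD, n = 3 each), a log2 fold change of 0.26 ± 0.05 (SE) with an edgeR adjusted p of 0.00379. HSPA5, the HSP70 of the endoplasmic reticulum, had 962 ± 59.1 CPM with nitidine chloride and 1092 ± 9.38 CPM with DMSO, and its log2 fold change of -0.18 ± 0.06 (edgeR adjusted p = 0.0346) kept its call in 8 of 18 alternatives. BAG3, an HSP70 co-chaperone strongly induced by HSF1 under heat, had 60.1 ± 3.62 CPM with nitidine chloride and 58.0 ± 3.66 CPM with DMSO, and was not called at 0.05 ± 0.08 (edgeR adjusted p = 0.622).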
